A study of Homo sapiens with 5 samples.

Results

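The genes described here build and run the mitotic spindle, the kinetochore and the centrosome. They were taken by symbol alone: all genes whose symbol starts with KIF, CEP or NEK and a digit, or with CENP, AURK or BUB, together with TROAP, PLK1, PLK4, CDC20, NDC80, NUF2, SPC24, SPC25, TTK, TPX2, BIRC5 and INCENP, and not on chromosome 21. This gave 119 of 14812 genes with a named probe set: 40 kinesin motors, 39 genes of the centrosome and cilium (38 CEP symbols and PLK4), 18 of the centromere and kinetochore, 10 NEK kinases, 6 mitotic kinases and chromosomal passenger genes, 5 of the spindle checkpoint and TROAP. NUF2, SPC24, SPC25, TPX2, CENPE and CENPF are not analysed here. Of the 119, 114 are protein-coding. The other 5 are the pseudogenes CENPBD2P, CEP170P1 and CEP192P1, the divergent transcript CEP83-DT and the antisense transcript KIF9-AS1, whose symbols match although no spindle or centrosome function is known for them. CEP170P1, CEP192P1 and KIF4B resemble the genes CEP170, CEP192 and KIF4A, and KIF9-AS1 lies antisense to KIF9, so each of these pairs may share signal and its values are uncertain.

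Transcripts were measured on 5 single-colour arrays of LNCaP, an established line of androgen-sensitive prostate cancer cells. Retroviral hairpin RNAs were introduced under puromycin, a scrambled one in 2 samples (shControl) and one against RB1 in 3 (shRB). Both groups received 10 Gy of ionizing radiation, and RNA was taken 24 h later, so every value is that of irradiated cells and the comparison asks what RB depletion changes in them. The hairpins were carried by populations of 1 cell line, and the labels do not say whether samples came from separate cultures, so a p-value reflects no more than how far these arrays scatter, and part of that scatter may be technical. With 2 against 3 arrays an exact rank test of a single gene cannot go below a two-sided p of 0.2. Tests therefore come from limma, fitted over all 14812 genes with Benjamini-Hochberg adjustment and a threshold of 0.05.

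At mitosis the centrosomes, duplicated by PLK4 and matured by Aurora and Polo kinases, organise a bipolar spindle of microtubules. Kinesins move on it or shorten its fibres, the CENP proteins mark the centromere and carry the NDC80 complex that grips fibre ends, and the BUB kinases with TTK hold back CDC20 until every chromosome is attached. Many of these genes are silent in G1 and peak in G2 and mitosis. RB restrains the E2F factors that drive S-phase genes, whereas the related pocket proteins, in the DREAM complex, repress G2 and mitosis genes through a promoter element called the cell cycle genes homology region. Many CEP proteins have another life in resting cells, as parts of the basal body and cilium, and many kinesins carry cargo along axons, cilia and other interphase tracks.

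Promoters are shown for 5 members to make that element visible. RefSeq promoters of build GRCh38.p14, running from 250 bases before to 50 after an annotated start, were found for 97 of the 119 members, with 124 starts. 3 motifs were searched on both strands: the homology region as TTTGAA or TTCGAA, the NF-Y box CCAAT, and an E2F motif as TTTCCCG or TTTGGCG or TTTGCCG or TTTCGCG. In the sequences below, written 5′ to 3′ on the gene's strand, capitals mark every match of the 3 motifs, whose letters do not overlap in these 5; a match on the other strand appears as its reverse complement. CDC20 (chr1:43358731-43359030, + strand), the activator of the anaphase-promoting complex, has homology regions 178 and 65 bases before its start. PLK1 (chr16:23678639-23678938, + strand), the Polo kinase, has one 29 bases before, and CENPA (chr2:26785806-26786105, + strand), the centromeric histone, one 18 bases before its start and an E2F motif farther upstream. CENPC (chr4:67545454-67545753, - strand), which ties that histone to the kinetochore, has one 90 bases before its start. CEP120 (chr5:123423793-123424092, - strand), a centriole elongation factor that passed the test below, has one 7 bases after this start and none of the 3 motifs at its other listed start.
CDC20: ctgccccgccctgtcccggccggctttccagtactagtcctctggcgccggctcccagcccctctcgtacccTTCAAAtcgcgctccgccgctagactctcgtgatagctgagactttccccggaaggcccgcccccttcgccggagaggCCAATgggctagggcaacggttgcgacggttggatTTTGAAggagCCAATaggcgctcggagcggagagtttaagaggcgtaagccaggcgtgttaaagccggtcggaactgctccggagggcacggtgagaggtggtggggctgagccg
PLK1: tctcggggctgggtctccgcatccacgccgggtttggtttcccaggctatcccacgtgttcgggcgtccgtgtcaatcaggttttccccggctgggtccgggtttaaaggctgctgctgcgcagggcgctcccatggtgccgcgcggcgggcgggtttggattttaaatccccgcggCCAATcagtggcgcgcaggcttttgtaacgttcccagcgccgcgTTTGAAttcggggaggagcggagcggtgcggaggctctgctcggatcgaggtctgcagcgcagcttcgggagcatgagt
CENPA: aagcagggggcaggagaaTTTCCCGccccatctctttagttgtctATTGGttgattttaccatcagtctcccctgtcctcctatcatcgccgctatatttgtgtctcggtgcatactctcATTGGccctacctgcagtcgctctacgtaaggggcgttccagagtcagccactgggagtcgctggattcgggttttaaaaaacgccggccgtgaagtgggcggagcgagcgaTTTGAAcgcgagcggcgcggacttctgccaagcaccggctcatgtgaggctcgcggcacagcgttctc
CENPC: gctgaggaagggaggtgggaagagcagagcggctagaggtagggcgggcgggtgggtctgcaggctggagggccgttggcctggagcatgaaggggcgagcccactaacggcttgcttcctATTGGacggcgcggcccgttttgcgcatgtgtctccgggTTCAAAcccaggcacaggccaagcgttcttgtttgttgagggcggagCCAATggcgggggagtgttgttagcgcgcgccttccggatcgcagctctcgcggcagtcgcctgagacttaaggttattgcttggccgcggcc
CEP120: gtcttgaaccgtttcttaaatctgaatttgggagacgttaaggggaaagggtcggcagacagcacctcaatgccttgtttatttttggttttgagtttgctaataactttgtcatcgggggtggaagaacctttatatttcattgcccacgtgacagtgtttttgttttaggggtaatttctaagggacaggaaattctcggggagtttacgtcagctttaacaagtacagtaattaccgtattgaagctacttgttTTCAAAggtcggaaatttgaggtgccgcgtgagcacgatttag

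**Figure D1:**
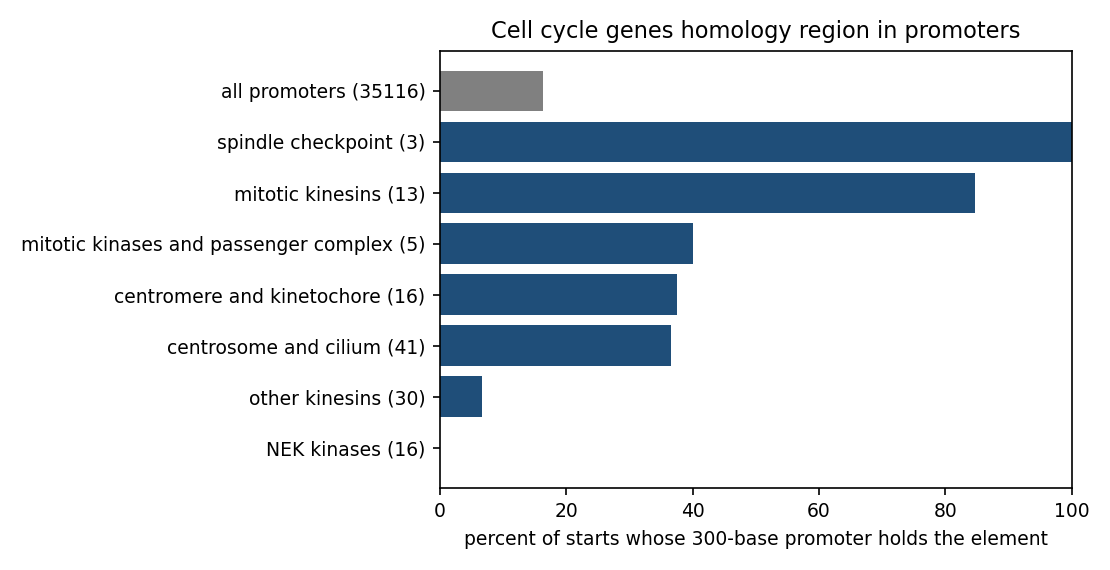
Percent of annotated starts (x axis) whose 300-base promoter holds TTTGAA or TTCGAA on either strand, for all promoters of the table (grey) and for the members by role (blue), with the number of starts in parentheses. Mitotic kinesins reach 84.6%, other kinesins 6.67% and all promoters 16.4%.

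The homology region was found at 39 of 124 starts of members (31.5%), against 16.4% of all 35116 promoters, a description with no test. It was held by 11 of 13 starts of the 12 kinesins listed as mitotic (84.6%), among them those of KIF11, KIF14, KIF18A, KIF23 and KIF4A, and by 2 of 30 starts of other kinesins (6.67%), those of KIF24 and KIF5B. That list left out the spindle depolymerases KIF2A and KIF2B, whose promoters hold none. With both counted as mitotic, a grouping added after the data were seen, the shares were 11 of 15 (73.3%) and 2 of 28 (7.14%). All 3 starts of BUB1, BUB1B and CDC20 held it, as did 6 of 16 centromere and kinetochore starts, 15 of 41 centrosome starts and 0 of 16 NEK starts. CCAAT was found at 48.4% of members' starts and 34.6% of all, and the E2F motif at 15.3% and 8.67%. A match says only that the letters are present.

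RB1, the target of the hairpin, had log2 intensities of 5.81 and 5.70 in shControl and 5.16, 5.28 and 5.20 in shRB, each shRB array below both shControl arrays, and a difference of -0.54 (adjusted p = 0.0967) that did not pass. Luminal prostate markers were bright (KLK3 at 10.06 to 10.17, KLK2 at 9.16 to 9.34 and FOLH1 at 9.48 to 9.75 on the 5 arrays), and KRT8, also of the 7 measured, lay at 6.05 to 6.81. The 4 measured basal markers and the 3 measured fibroblast markers stayed at 5.59 or less. Of 3 measured blood and endothelial markers, CD14 lay at 4.21 to 4.64, VWF at 5.13 to 6.41 and CD68 at 6.46 to 7.21. No marker of these lists passed, and their part in the results below was not tested. Over all genes the shRB arrays correlated at r = 0.983 to 0.986 and the shControl pair at 0.966, while arrays of different groups correlated at 0.955 to 0.970. The controls were thus no more alike than some pairs across groups. The deposited intensities do not go below 16 (a log2 intensity of 4), which looks like an added constant and compresses the differences of dim genes. In bulk samples fewer cells in a cell cycle phase and less RNA per cell cannot be told apart.

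The difference was positive in 62 and negative in 57, and its median was 0.04 against 0.02 over all genes tested, and 53.8% of all genes had a positive difference. Of the members, 3 passed (2.52%, against 1.07% of all genes): CEP170P1 and CEP120 rose (0.695% of all genes did) and NEK5 fell (0.378%). CEP170P1 is a pseudogene, and of the protein-coding members 1.75% passed, against 1.07% of protein-coding genes. All shRB arrays lay above both shControl arrays for 21 members (17.6%, against 20.6% of all genes) and below them for 23 (19.3%, against 15.4%). An unadjusted p below 0.05 was seen for 28 members (23.5%, against 18.1%). By role, with no test of the difference between roles, 26 of 38 CEP genes had a positive difference, and 26 of 40 kinesin genes a negative one. Under quantile normalization or subtraction of array medians these became 25 and 26 CEP genes, and 27 and 26 kinesin genes. Without 1 array the kinesin count ranged from 22, near an even split, without shControl replicate 1, to 27. Over all genes 103 of 159 calls were higher; after quantile normalization it was 60 of 115, and with the constant described above removed 4 of 13.

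**Figure D2:**
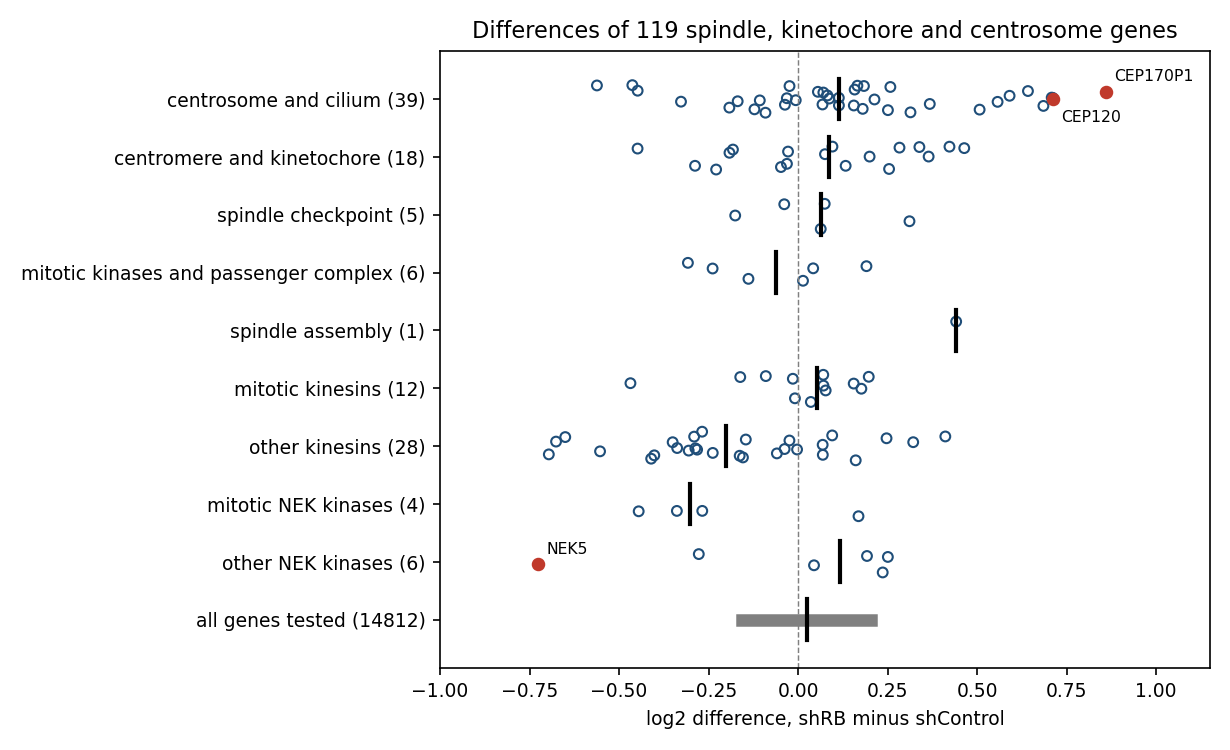
Log2 difference, shRB minus shControl (x axis), for each of the 119 members by role (y axis, number of genes in parentheses); red points passed limma's test, black bars are medians and the grey bar spans the middle 50% of all genes tested. Genes grouped by symbol under centrosome and cilium reach the highest values (the pseudogene CEP170P1 at 0.86) and NEK5 the lowest at -0.73. Mitotic kinesins lie around a median of 0.05 and other kinesins around -0.20.

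The genes grouped by symbol under centrosome and cilium held the members with the highest differences. CEP120, which promotes centriole elongation and cilium assembly, had log2 intensities of 4.99 and 5.19 in shControl and 5.87, 5.77 and 5.77 in shRB. The 3 shRB arrays lay close together and above both controls. The shControl mean was 5.09 ± 0.14 (SD, n = 2), that of shRB 5.80 ± 0.06 (SD, n = 3), and CEP120 rose by a log2 difference of 0.71 (SE 0.15, limma adjusted p = 0.0484), 1.64-fold on the deposited scale or 2.20-fold with 16 taken off the intensities. CEP170P1, the transcribed pseudogene of CEP170, stood at 4.67 and 4.91 in shControl and 5.70, 5.55 and 5.70 in shRB. It rose by 0.86 (SE 0.15, adjusted p = 0.0262), with no overlap between groups. CEP170 itself, a protein of the subdistal appendages of the mother centriole, read 6.14 and 5.18 in shControl and 6.36, 6.32 and 6.42 in shRB. Its controls differed from each other by more than the groups did in this gene, and its difference of 0.71 did not pass (adjusted p = 0.152). The difference was 1.19 without shControl replicate 1 and 0.23 without replicate 2. Such fits rest on a single control, so only the difference is given for them.

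Both calls were close to the threshold. Without any 1 of the shRB arrays neither passed (adjusted p 0.189 to 0.220 for CEP120 and 0.121 to 0.196 for CEP170P1). With 16 taken off and 4 added before the logarithm the differences were 0.99 and 1.29 and again neither passed (adjusted p = 0.134 and 0.115). CEP120 also did not pass after quantile normalization (limma adjusted p = 0.0623), with array weights (0.085) and with probe sets averaged (0.0504). In a fit over all probe sets CEP120 did not pass (0.0546), and with the replicate block neither gene did.

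Further CEP genes also had all shRB arrays above both controls, and none of these passed. The 7 of them with the largest differences are given here. CEP350, a large protein that anchors microtubules at the centrosome, read 5.91 and 5.82 in shControl and 6.57, 6.49 and 6.59 in shRB. The arrays were tight within each group, and the difference of 0.69 had an adjusted p of 0.05004. It passed with dim genes left out (0.0201) and with an intensity trend (0.0273). CEP19, needed for cilium assembly, had 4.28 and 4.63 in shControl and 5.42, 5.05 and 5.05 in shRB, with the controls near the floor (difference 0.71, adjusted p = 0.0845). CEP85, which acts in centriole duplication, had controls at 4.72 and 4.82 and differed by 0.64 (adjusted p = 0.0853). CEP85L, its paralog, had controls at 4.11 and 4.42, also near the floor, and differed by 0.59 (adjusted p = 0.109). That is 1.51-fold as deposited and 3.95-fold with 16 taken off. CEP295, which converts new centrioles into centrosomes, read 6.63 and 6.28 in shControl and 6.93, 7.02 and 7.09 in shRB. Its difference was 0.56 (adjusted p = 0.11), and 0.73 without shControl replicate 1. CEP290, a gatekeeper of the ciliary transition zone, differed by 0.51 (adjusted p = 0.177). Its controls lay apart, at 4.93 and 5.48: the difference was 0.23 without shControl replicate 1 and 0.79 without replicate 2. CEP192, the scaffold that recruits Aurora A and PLK4, differed by 0.37 (adjusted p = 0.225).

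In all, 14 of the 38 CEP genes (36.8%, against 20.6% of all genes) had every shRB array above both controls and 5 (13.2%, against 15.4%) had every one below, with a median difference of 0.14 over the 38. Leaving out any 1 array changed the count of positive CEP genes from 26 to between 24 and 28. The 5 lower ones were CEP72, CEP55, CEP164, CEP152 and CEP192P1. CEP72, a protein of centriolar satellites, read 5.39 and 6.22 in shControl and 5.19, 5.20 and 5.35 in shRB, so its difference of -0.56 (adjusted p = 0.206) turned on which control was used. It was -0.15 without shControl replicate 2 and -0.98 without replicate 1. CEP55, which acts in the last step of cell division at the midbody rather than at the centrosome, read 5.67 and 5.97 in shControl and 5.45, 5.17 and 5.45 in shRB, and its difference of -0.46 did not pass (adjusted p = 0.176). CEP164, of the distal appendages, differed by -0.33 (adjusted p = 0.272). CEP152, which recruits PLK4 to the centriole, differed by -0.17 (adjusted p = 0.578). CEP192P1 has 2 probe sets that disagree in sign (log2 -0.45 and 0.35), and neither passed. With controls at 4.44 and 5.17, its difference was -0.81 without shControl replicate 1 and -0.08 without replicate 2. PLK4 itself, the master kinase of centriole duplication, read 4.40 and 4.75 in shControl and 4.49, 4.51 and 4.72 in shRB, near the floor and overlapping, with a difference of -0.01 (95% interval -0.37 to 0.35).

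**Figure D3:**
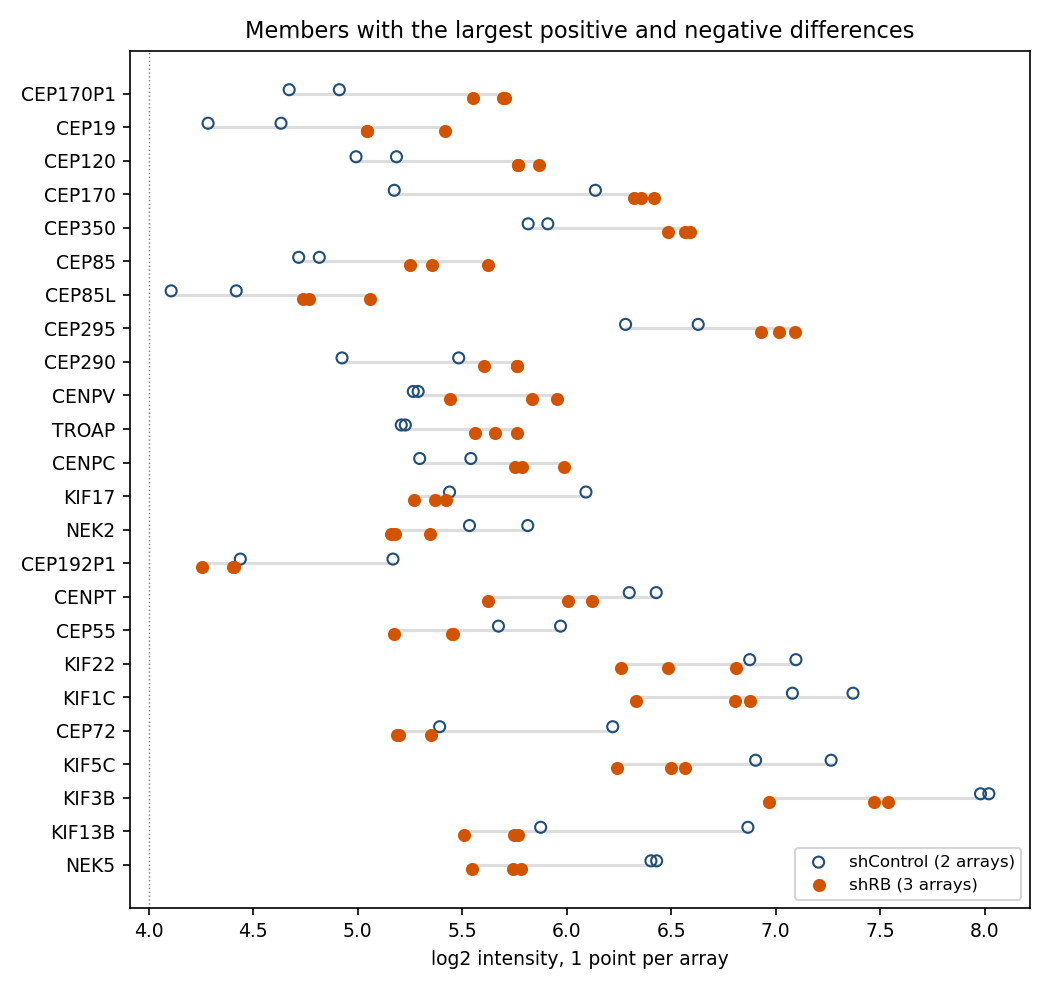
Log2 intensity (x axis, 1 point per array, dotted line at the floor of 4) of the 12 members with the largest positive and the 12 with the largest negative differences (y axis), open circles for the 2 shControl arrays and filled ones for the 3 shRB arrays. In all 24 genes the groups do not overlap, which their choice by size of difference favours, and 36.0% of all genes do not overlap either. CEP170, CEP72 and KIF13B show controls far apart.

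Among kinetochore and centromere genes none of 18 passed (lowest adjusted p 0.192, limma). At an unadjusted p below 0.05 were 3 (16.7%, against 18.1% of all genes). The 18 split 10 to 8 between positive and negative around a median of 0.09. CENPC, whose promoter is printed above, read 5.54 and 5.30 in shControl and 5.75, 5.79 and 5.99 in shRB. All shRB arrays were above both controls, with a difference of 0.42 (adjusted p = 0.192). CENPV, a centromere protein that helps to position the passenger complex, differed by 0.46 (adjusted p = 0.198). CENPT, the other bridge from centromeric DNA to NDC80, went the opposite way, 6.30 and 6.43 in shControl and 6.01, 6.12 and 5.62 in shRB, a difference of -0.45 (adjusted p = 0.212). CENPA read 5.10 and 4.89 in shControl and 4.65, 4.94 and 4.72 in shRB, with overlapping groups and a difference of -0.23 (95% interval -0.57 to 0.12). NDC80, which binds microtubule ends, read 5.24 and 5.39 in shControl and 5.28, 5.30 and 5.66 in shRB, also overlapping, a difference of 0.10 (95% interval -0.27 to 0.46).

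The spindle checkpoint and its target showed no call in 5 genes (lowest adjusted p 0.305, 0 at an unadjusted p below 0.05). CDC20 read 4.84 and 5.00 in shControl and 5.34, 5.10 and 5.25 in shRB. Its shRB arrays all lay above the controls, by 0.31 on average (adjusted p = 0.305). BUB1, the kinase that brings shugoshin to centromeres, differed by -0.04 (95% interval -0.41 to 0.33), BUB1B, which encodes BUBR1, by 0.07 (95% interval -0.26 to 0.41), and BUB3, their WD40 partner, by -0.18 (95% interval -0.52 to 0.17). TTK, the kinase that starts checkpoint signalling, had controls at 4.11 and 5.31 with all shRB arrays between them, so its difference of 0.06 (95% interval -0.55 to 0.68) has the widest interval of the 5. It was -0.54 without shControl replicate 1 and 0.66 without replicate 2, so it has no settled direction.

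Of the mitotic kinases and passenger genes 0 of 6 passed (limma, lowest adjusted p 0.367, 0 at an unadjusted p below 0.05). PLK1 read 5.99 and 6.22 in shControl and 5.84, 5.68 and 6.08 in shRB, with overlapping groups and a difference of -0.24 (95% interval -0.60 to 0.13). AURKA, which matures centrosomes, differed by 0.04 (95% interval -0.28 to 0.36) and AURKB, the passenger kinase that corrects attachments, by 0.19 (95% interval -0.20 to 0.58). Its partners INCENP and BIRC5, the latter encoding survivin, differed by 0.01 (95% interval -0.36 to 0.39) and -0.14 (95% interval -0.48 to 0.20). AURKC, the germline paralog, had all shRB arrays below the controls (-0.31, adjusted p = 0.367). TROAP, which stabilises the spindle at its poles, was the core mitotic gene with the smallest p: it read 5.21 and 5.23 in shControl and 5.66, 5.56 and 5.76 in shRB, tight in both groups, with a difference of 0.44 that did not pass (adjusted p = 0.154).

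Over 20 core mitotic members, 10 differences were positive and 10 negative, with a median of 0.00. For 17 of them, all but TROAP, NEK2 and CEP55, the 95% interval held 0, and the outermost bounds of those intervals were -0.60 and 0.68 on the log2 scale. These 17 were set apart after their values were seen, so this is a description, and an interval that holds 0 does not show that a gene was the same in both groups.

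**Figure D4:**
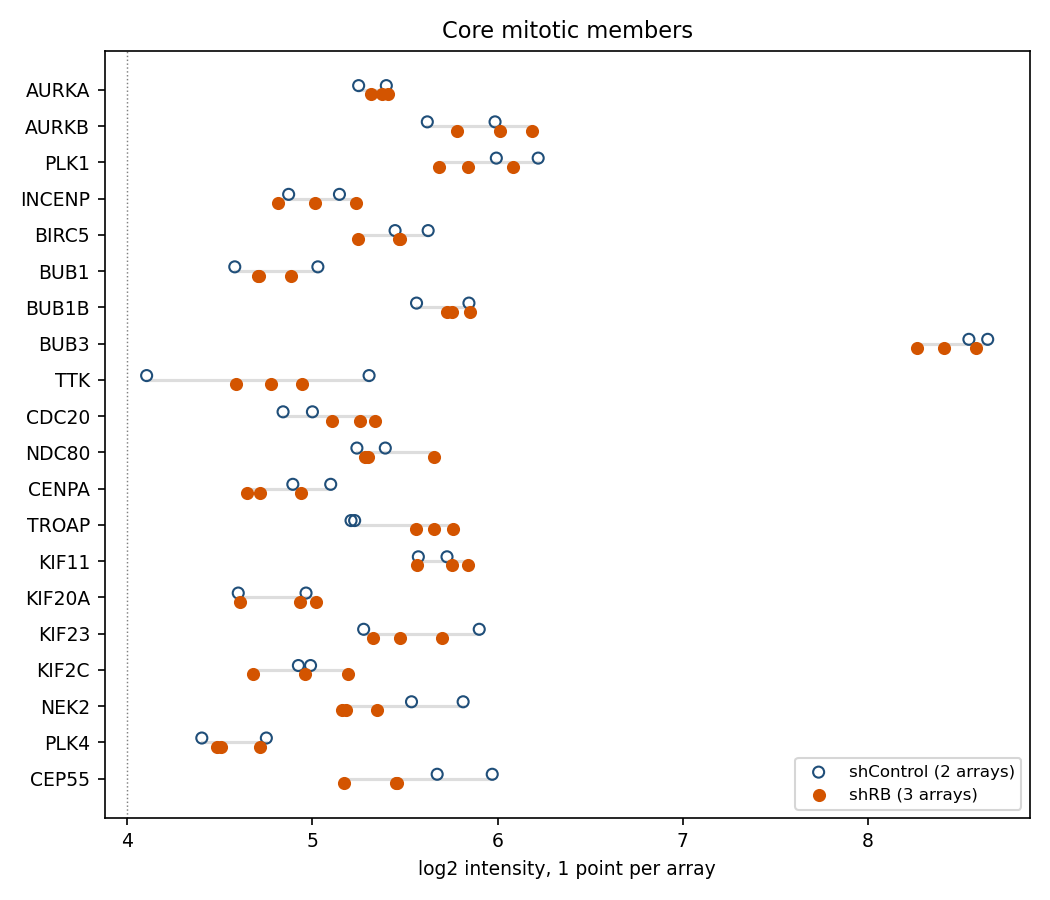
Log2 intensity (x axis, 1 point per array, dotted line at the floor of 4) of 20 core mitotic members (y axis), open circles for shControl and filled ones for shRB. In 16 of them the groups overlap. In the rest (20.0%, against 36.0% of all genes) they do not: TROAP and CDC20 lie higher and NEK2 and CEP55 lower in every shRB array.

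No kinesin passed (0 of 40, lowest adjusted p 0.095, limma), with 7 at an unadjusted p below 0.05, all of them lower in shRB. Counting both directions, that is 17.5% of the kinesins, near the 18.1% of all genes. Of all 14812 genes, 1070 were lower at such a p and 1614 higher, so the shares differ by direction. The 12 kinesins listed as mitotic split 7 to 5 between positive and negative, around a median of 0.05, and ranged from -0.47 to 0.20. KIF11, the Eg5 motor that pushes spindle poles apart, read 5.73 and 5.57 in shControl and 5.84, 5.56 and 5.76 in shRB, a difference of 0.07 (95% interval -0.27 to 0.41). KIF20A, needed for cytokinesis, differed by 0.07 (95% interval -0.32 to 0.46), KIF2C, the microtubule depolymerase MCAK, by -0.01 (95% interval -0.39 to 0.36) and KIF23, the centralspindlin motor, by -0.09 (95% interval -0.53 to 0.35). KIF22, which pushes chromosome arms outward, stood apart from these with 6.88 and 7.10 in shControl and 6.81, 6.49 and 6.26 in shRB, a difference of -0.47 (adjusted p = 0.21).

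The other 28 kinesins had 21 negative and 7 positive differences, with a median of -0.20. In 9 of the 28 (32.1%, against 15.4% of all genes) every shRB array lay below both controls, and in 1 (3.57%, against 20.6%), KIF2A, every one lay above. With KIF2A and KIF2B counted as mitotic, 20 of 26 other kinesins were negative, with a median of -0.25, and 8 of 14 mitotic ones positive, with a median of 0.05. KIF3B, a motor subunit of intraflagellar transport, read 7.98 and 8.02 in shControl and 7.47, 7.54 and 6.97 in shRB. The controls were nearly equal, shRB replicate 3 was the lowest, and the difference was -0.68 (adjusted p = 0.102). KIF5C, a kinesin-1 cargo motor best known from neurons, read 6.90 and 7.27 in shControl and 6.50, 6.56 and 6.24 in shRB, a difference of -0.65 (adjusted p = 0.095), while its ubiquitous paralog KIF5B differed by -0.35 (adjusted p = 0.25). KIF5C passed with dim genes left out (0.0458) and with an intensity trend (0.0369), and so did KIF3B (0.0496 and 0.02). KIF1C, a vesicle motor, differed by -0.55 (adjusted p = 0.165). KIF13B had controls at 5.88 and 6.87, so its difference of -0.70 (adjusted p = 0.17) turned on which control was used. Without replicate 2 it was -0.20, and without replicate 1 it was -1.19. KIF17, a ciliary and dendritic motor, differed by -0.41 (adjusted p = 0.284), with controls at 5.44 and 6.09. It was -0.74 without shControl replicate 1 and -0.08 without replicate 2. The difference between mitotic and other kinesins was not tested.

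Of the 10 NEK kinases, relatives of the fungal NIMA kinase, NEK5 passed. NEK5, which acts on centrosome cohesion, read 6.43 and 6.40 in shControl and 5.74, 5.55 and 5.78 in shRB. The controls were nearly equal and every shRB array was lower. The shControl mean was 6.42 ± 0.02 (SD, n = 2), that of shRB 5.69 ± 0.13 (SD, n = 3). NEK5 fell, with a log2 difference of -0.73 (SE 0.15, limma adjusted p = 0.0468), which is 1.65-fold as deposited and 1.94-fold with 16 taken off. It did not pass in any of the 5 fits without 1 array, with array weights (limma adjusted p = 0.0782) or with the constant removed (0.151). Nor did it pass with the replicate block or in a fit over all probe sets (0.0537). NEK2, the kinase that separates centrosomes at mitotic entry, read 5.54 and 5.81 in shControl and 5.35, 5.16 and 5.18 in shRB, again with no overlap, and its difference of -0.45 did not pass (adjusted p = 0.171). NEK6 and NEK9, of the kinase cascade that activates Eg5, differed by -0.34 (adjusted p = 0.261) and -0.27 (adjusted p = 0.42), and NEK7, of the same cascade, by 0.17 (adjusted p = 0.657). Over the 10 there were 5 positive and 5 negative differences. At an unadjusted p below 0.05 were 3 of the 10, all lower, against 18.1% of all genes in both directions. Lower at such a p were 1070 of all 14812 genes. With 10 kinases the difference in share was not tested.

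**Figure D5:**
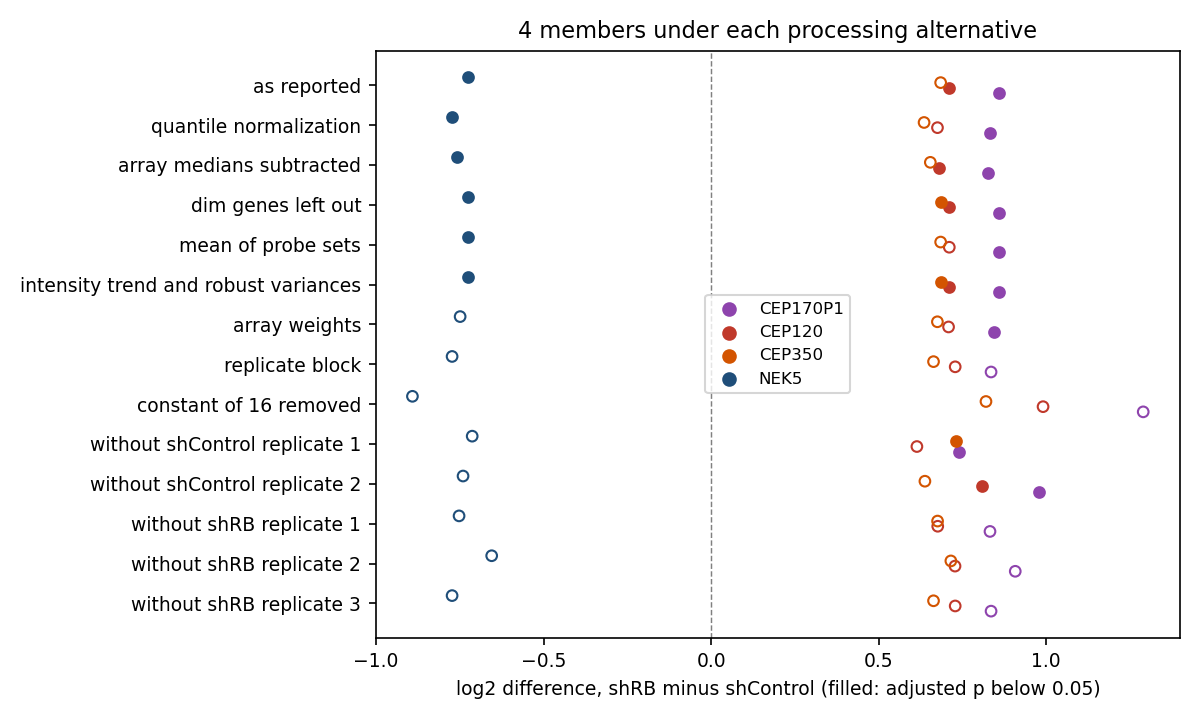
Log2 difference, shRB minus shControl (x axis), of CEP170P1, CEP120, CEP350 and NEK5 as reported and under each alternative (y axis); filled points have an adjusted p below 0.05. Every difference kept its sign, and no point is filled with the constant of 16 removed or without an shRB array. Fits without an shControl array rest on a single control, so their fill takes no account of the spread between controls.

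Partner genes outside the symbol rule were read from 4 lists. Of 44 listed centrosome and gamma-tubulin partners 20 were measured, 12 positive and 8 negative with a median of 0.11, and 1 passed (5.0%, against 1.07% of all genes). This was PLK3, a Polo kinase induced by stress and by p53. It rose by 0.84 (limma adjusted p = 0.0336), from 4.45 and 4.73 in shControl to 5.30, 5.45 and 5.52 in shRB. PLK3 did not pass without any 1 shRB array (adjusted p up to 0.208) or with array weights (0.0511). CENATAC, a splicing factor once named as a coiled-coil protein, differed by 0.59 (adjusted p = 0.0795), and SDCCAG8, of the centriole and cilium, read 6.44 and 6.34 in shControl and 6.97, 6.92 and 7.02 in shRB, a difference of 0.58 (adjusted p = 0.0829). Both passed with dim genes left out (0.0372 and 0.0391) and with an intensity trend (0.0397 and 0.0406). CDK5RAP2, which tethers gamma-tubulin rings, went the other way, by -0.42 (adjusted p = 0.177). In 7 of the 20 (against 20.6% of all genes) every shRB array lay above both controls, and in 2 (against 15.4%) every one lay below.

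Of 32 kinetochore partners 23 were measured and 0 passed, with a median of -0.00. At an unadjusted limma p below 0.05 were 2 (8.70%, against 18.1% of all genes). CLASP2, which stabilises microtubule ends at kinetochores and at the cell edge, had the smallest p: it read 5.67 and 5.95 in shControl and 6.58, 6.42 and 6.57 in shRB, a difference of 0.71 (adjusted p = 0.0574). It passed with dim genes left out (0.0238) and with an intensity trend (0.0273). OIP5, which loads CENPA, differed by 0.44 (adjusted p = 0.19). KNTC1, of the corona complex that recruits dynein, differed by 0.30 (adjusted p = 0.319) and the passenger subunit CDCA8 by -0.37 (adjusted p = 0.32).

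Spindle assembly and cytokinesis partners (23 measured of 40) had 13 negative differences, a median of -0.07 and 0 calls. At an unadjusted limma p below 0.05 were 3 of the 23, against 18.1% of all genes. NDE1, a dynein regulator of the centrosome, read 7.16 and 6.86 in shControl and 5.91, 6.41 and 5.53 in shRB. Its shRB arrays spread widely below both controls, and the difference of -1.06 had an adjusted p of 0.0541. It passed with array medians subtracted (0.0241), with dim genes left out (0.0198) and with an intensity trend (0.00563). DCTN1, the large dynactin subunit, differed by -0.51 (adjusted p = 0.186) and PRC1, which bundles the central spindle, by -0.39 (adjusted p = 0.229). CHMP4B, of the abscission machinery, differed by -0.27 (adjusted p = 0.376). Mitotic entry and exit regulators (41 measured of 50) were split 20 to 21 with a median of -0.02 and 0 calls. At an unadjusted limma p below 0.05 were 4 (9.76%, against 18.1% of all genes). ANAPC2 and ANAPC7, subunits of the anaphase-promoting complex, differed in opposite directions, by -0.52 (adjusted p = 0.14) and 0.42 (adjusted p = 0.201). LIN9, a core subunit shared by DREAM and MYB complexes, differed by 0.39 (adjusted p = 0.204) and CCNA2, cyclin A2, by -0.40 (adjusted p = 0.218).

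The spread among controls limited many members. The 2 shControl arrays differed by more than 0.5 on the log2 scale in 25 of the 119 members, 12 higher in replicate 1 and 13 in replicate 2, and 13 of the 25 were kinesins. The median gap between controls was 0.28 over the members and 0.22 over all genes. Of the members, 44 lay below the median intensity of all genes, among them 8 of the 12 mitotic kinesins. Members spanned longer genes than most, with a median annotated span of 47971 bases against 20870.5 over all genes. Across the 119 members the difference had a Spearman correlation of 0.03 with that span and -0.06 with mean log2 intensity, and over the 40 kinesins -0.06 and -0.31, so the brighter kinesins tended to have the lower differences. These are descriptions over genes that share the same 5 arrays.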

How the data were processed

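The authors deposited linear intensities, 1 per probe set and array. How they were summarised and normalized, and with which software, is not given in the sources used here. Of 44607 probe sets, 15835 carried 1 symbol, 0 more than 1 and 28772 none, per GEO's platform annotation; all 15835 matched the RefSeq gene table of GRCh38.p14 by Entrez identifier. Each of 14812 genes was read from its brightest probe set on average (651 had a choice), with no filter. The deposited intensities were log2-transformed without further normalization and fitted with lmFit and eBayes of limma 3.58.1 under R 4.3.3 ( 2 groups, two-sided, Benjamini-Hochberg over all genes). The fit was tried on simulated data whose added differences were larger than that of any member. That trial therefore does not show how well differences of the sizes reported here are found. The 5 arrays limit the precision. Median intensities per array ranged from 26.65 to 28.06.

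Members, lists and rules were chosen with earlier results of these data known. Genes named are RB1, members that passed, the 12 largest differences each way, a list of core mitotic genes, and those of smallest p per role (2) and partner list (4). Further genes were named after their values were seen (KIF2A, KIF5B, NEK6, NEK7, NEK9, CEP152, CEP164, CEP192 and genes named only for a motif). Alternatives were removal of the constant of 16 (4 added), each array left out, averaged probe sets, quantile normalization, dim genes (below the median intensity) left out, array weights, median-centred arrays, the replicate number as block, a robust fit with an intensity trend, and a fit over all probe sets. Without an shControl array a single control is left, and the p-values of those fits hold no spread between controls, so the text gives only their differences.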

Additional observations from a re-analysis of the deposited data

How the results depend on the processing

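Over all genes 159 passed, which became 385 with dim genes left out, 426 with an intensity trend, 88 with array weights, 24 with the replicate block, 13 with the constant of 16 removed and 22 to 411 without 1 array. Of the members 3 passed, which became 6, 6, 1, 0, 0 and 0 to 10 under the same settings, and 1 with each probe set on its own. The 10 calls came without shControl replicate 1, where NEK5 and CEP120 were not among them, and the 0 without any 1 of the shRB arrays, where 24, 19 and 15 members had an unadjusted p below 0.05 (limma). With the block 16 did, and with the constant removed 21. The share of all genes at such a p is given here for the main fit only. Whether these counts exceed the background of their own settings was therefore not tested. The causes were not tested, apart from fewer arrays or genes where the setting itself leaves them out. The median of the kinesins, -0.07, became -0.16 with dim genes left out and -0.15 to -0.0232 without 1 array. RB1, at -0.54, passed with dim genes left out (-0.54, adjusted p = 0.0489).

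The block treats arrays of 1 number as pairs. The third shRB replicate has no shControl partner, so under the block it adds nothing to a difference. The differences were those of the fit without that array (RB1 at -0.53 in both). Deviations of same-numbered arrays correlated at -0.02 and 0.05, with 2 shared numbers, so nothing shows that the numbers pair the samples. Of the 42 members that the naming rule took, 31 kept the sign of their difference under every alternative run for them. The others, with 21 turned signs in all, were AURKA, PLK4, BUB1, BUB1B, TTK, NDC80, INCENP, KIF11, KIF20A, KIF23 and KIF2C, and passed in no setting that kept both controls.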
